A study of Mus musculus with 8 samples.

Results

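The p53 target genes Sfn, Cdkn1a, Mdm2, Ccng1, Bax, Gadd45a, Phlda3, Eda2r, Trp53inp1 and Zmat3 were described in mouse brain cortex. They were taken by gene symbol from the count tables, and 9 of the 10 could be followed among the 15693 genes measured. Eda2r, the receptor gene for an ectodysplasin isoform, was not analysed here. Sfn was chosen by its measured difference between the genotypes in these libraries, so its values for that contrast are a description and carry no test. The other members were listed for their place in the p53 response, with earlier results of these data known.

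Polyadenylated RNA of whole cortex was sequenced from 8 mice aged 4 months, 4 of genotype TDP-43Q331K and 4 wild type (WT). TDP-43 is the RNA-binding protein encoded by Tardbp, and the Q331K change is linked to amyotrophic lateral sclerosis (ALS). The WT libraries carry the genotype C57BL/6J in the sample labels, whereas the design text of the series names c57bl6/n. How the mutation was brought into the line, what drives its expression and the sex of the animals are not stated in the labels. Every library belonged to batch 1, and total counts ran from 50446486 to 54890055 in TDP-43Q331K and from 45253021 to 58115164 in WT. Tardbp itself was at 162, 141, 167 and 149 CPM in TDP-43Q331K and at 171, 198, 193 and 176 CPM in WT. CPM are counts per 1000000 of the library size, adjusted by the TMM method. Xist, the RNA of the inactive X chromosome, reached 1015 and 905 CPM in mutant replicates 1 and 2, against 984 and 876 CPM in WT replicates 2 and 3; no other library exceeded 1.37 CPM. Markers of excitatory neurons were abundant in every library, with Camk2a at a mean of 3137 CPM.

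The protein p53, encoded by Trp53, is a transcription factor that is held low by the ubiquitin ligase encoded by Mdm2 and stabilised after DNA damage and other stress. It binds a response element made of a pair of decamers and raises genes that stop the cell cycle, repair DNA, start apoptosis or restrain p53 itself. Neurons do not divide, and in the nervous system p53 is best known for its part in neuronal death after injury. Sfn encodes 14-3-3 sigma, an adaptor that binds phosphorylated proteins and can hold cyclin-dependent kinase complexes in the cytoplasm; it is known mainly from epithelial cells.

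The promoter windows of 3 members are shown. They are the 2 windows of the members that match the p53 response element most closely, and that of Sfn. Windows of 300 bases, from 250 bases before to 50 bases after an annotated gene start, were found for 8 of the 10 members (all but Trp53inp1 and Zmat3), with 2 windows for Cdkn1a. The sequences are from RefSeq on GRCm38.p6, run 5′ to 3′ on the gene's strand, and have in capitals the closest match to the consensus p53 element, a pair of adjoining decamers of 10 bases that reads alike on both strands, with the central C and G of each decamer required. The Cdkn1a window is that of the upstream start, chr17:29090729-29091028 on the plus strand, the Ccng1 window is chr11:40755237-40755536 on the minus strand, and the Sfn window is chr4:133602119-133602418 on the minus strand.
Cdkn1a: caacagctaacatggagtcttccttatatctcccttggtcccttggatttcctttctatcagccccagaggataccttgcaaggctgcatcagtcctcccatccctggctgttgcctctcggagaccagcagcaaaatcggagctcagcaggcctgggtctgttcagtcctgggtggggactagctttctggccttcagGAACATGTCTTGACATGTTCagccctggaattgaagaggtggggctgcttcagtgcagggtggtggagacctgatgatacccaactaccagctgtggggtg
Ccng1: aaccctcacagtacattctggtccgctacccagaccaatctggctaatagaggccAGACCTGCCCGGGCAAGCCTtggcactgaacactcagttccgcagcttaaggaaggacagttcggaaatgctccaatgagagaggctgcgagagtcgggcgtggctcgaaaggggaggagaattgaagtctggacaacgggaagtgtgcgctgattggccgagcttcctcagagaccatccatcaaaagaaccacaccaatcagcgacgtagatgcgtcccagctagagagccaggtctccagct
Sfn: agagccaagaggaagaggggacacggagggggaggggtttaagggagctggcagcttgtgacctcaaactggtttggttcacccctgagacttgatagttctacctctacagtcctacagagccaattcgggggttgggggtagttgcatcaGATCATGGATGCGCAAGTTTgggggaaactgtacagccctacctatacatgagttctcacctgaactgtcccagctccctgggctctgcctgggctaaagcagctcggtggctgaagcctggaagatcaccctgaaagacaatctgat

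The match in Cdkn1a, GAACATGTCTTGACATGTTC, had 1 mismatch to the consensus and began 51 bases before that start. The match in Ccng1, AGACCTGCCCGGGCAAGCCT, also had 1 mismatch and began 195 bases before the start. Of 32851 promoter windows searched, 22 held a match with at most 1 mismatch, a share of 0.067%. The closest match in the Sfn window had 4 mismatches, a closeness reached in 4.80% of all windows. The windows of Phlda3, Bax, Mdm2, Eda2r and Gadd45a had closest matches with 5, 7, 9, 9 and 12 mismatches, and the second Cdkn1a window 7. These matches describe letters in a window and not binding, which was not measured. Elements outside the windows, or with a spacer between the decamers, were not searched.

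Sfn, the member chosen for its difference, was higher in every TDP-43Q331K library than in any WT library. It was at 2.80, 2.79, 2.71 and 2.49 CPM in TDP-43Q331K replicates 1 to 4 and at 1.61, 1.33, 1.53 and 1.46 CPM in WT replicates 1 to 4. The groups did not overlap, and within each genotype the libraries were close together, both of which its choice for this difference favours. Its mean was 2.70 ± 0.144 CPM in TDP-43Q331K and 1.48 ± 0.121 CPM in WT (SD, n = 4 each), 1.82-fold higher in the mutants, with a log2 fold change of 0.86. These levels rest on 140, 153, 149 and 137 counts in the TDP-43Q331K libraries and on 80, 77, 80 and 66 in the WT libraries. Per kilobase of exon, Sfn was the lowest of the 9 members, at 1.67 CPM in TDP-43Q331K and 0.918 CPM in WT. Whether more cells contained the transcript or each cell contained more of it cannot be told apart in RNA of whole tissue.

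**Figure D1:**
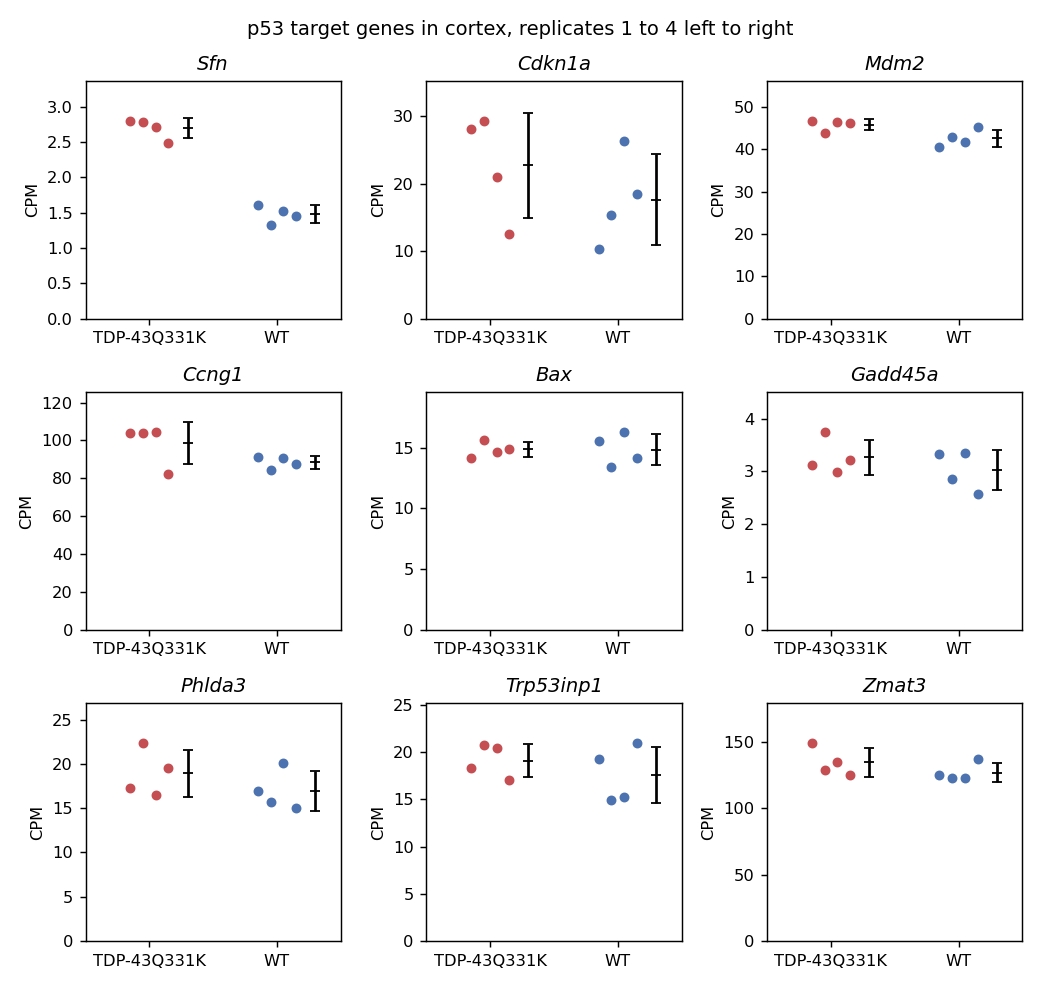
CPM of each of the 9 p53 target genes in every library, TDP-43Q331K at the left and WT at the right of each panel, with replicates 1 to 4 from left to right and the mean ± SD (n = 4) as a bar beside them; every axis starts at 0. Sfn has all 4 TDP-43Q331K libraries between 2.49 and 2.80 CPM, above the 4 WT libraries between 1.33 and 1.61 CPM, whereas the groups overlap in the other 8 genes.

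Sfn is annotated as a gene of 1 exon that overlaps no other gene in GENCODE M21. Its transcript resembles the processed pseudogenes Gm7850, with 97.5% identity over 712 bases, and Gm5279, with 94.6% over 727 bases, so that its count is uncertain where reads fit more than 1 place; neither pseudogene was analysed here. The nearest coding genes on one side, Gpn2 and Gpatch3, had log2 fold changes of -0.13 and -0.09. On the other side Zdhhc18, Pigv and Arid1a had 0.07, 0.15 and 0.08. None of these 5 neighbours passed edgeR's quasi-likelihood test, with adjusted p between 0.414 and 0.717. Leaving out each library in turn gave Sfn log2 fold changes between 0.81 and 0.91. With limma-trend, run on the authors' normalised signal after adding 1 and taking log2, a scale that understates changes of low genes, it was 0.58. Without TDP-43Q331K replicate 4 and WT replicate 1, an alternative chosen after seeing the data, it was 0.95, and the count of members past the test was 0 instead of 1.

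Of the 9 members, 1 passed edgeR's quasi-likelihood test at a Benjamini-Hochberg adjusted p under 0.05 over all genes, and that was Sfn, which was chosen for it. Of all genes measured, 0.943% passed, 0.344% as 54 higher genes and 0.599% as 94 lower ones. With library size as the only scaling there were 64 higher and 73 lower. Sfn was also the only member whose groups did not overlap, a pattern found in 9.68% of all genes, 4.49% with the mutants higher and 5.19% with the mutants lower. The log2 fold changes of the 9 members were all positive, with a median of 0.12, where 51.8% of all genes were positive and the median was 0.0045. The sign of Sfn was known when it was chosen, so it adds nothing to this count, and the median of the members includes it. Bax was at 0.00072 and turned negative under some alternatives, RLE and upper quartile scaling among them.

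**Figure D2:**
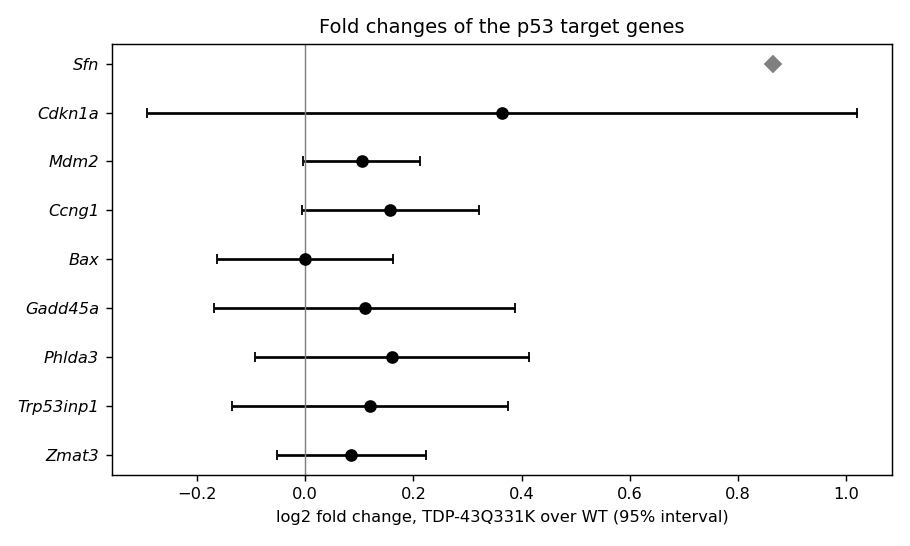
Log2 fold change, TDP-43Q331K over WT, for each p53 target gene, with the 95% interval from edgeR as a bar; Sfn is drawn as a grey diamond without an interval, since it was chosen for its difference. The intervals of the other 8 genes all include 0, and that of Cdkn1a is the widest, from -0.29 to 1.02.

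Among the members that act on the cell cycle, Cdkn1a encodes p21, an inhibitor of cyclin-dependent kinases and the best known p53 target. It was at 28.1, 29.4, 21.0 and 12.5 CPM in TDP-43Q331K and at 10.4, 15.4, 26.4 and 18.4 CPM in WT. Short RNAs of the misc_RNA class match parts of Cdkn1a and Mdm2, and the model Gm45808 shares exon bases with Bax, so a part of their reads is uncertain. Cdkn1a varied more than any other member within both groups. Across both genotypes, the highest library was 2.83-fold above the lowest, and the groups overlapped over most of their range. Its mean was 22.7 ± 7.76 CPM in TDP-43Q331K and 17.6 ± 6.70 CPM in WT (SD, n = 4 each). The log2 fold change of 0.36 (95% interval -0.29 to 1.02, edgeR adjusted p 0.592) did not pass. It ranged from 0.18 without WT replicate 1 to 0.63 without WT replicate 3, so single libraries set its size; without TDP-43Q331K replicate 1, 2 or 4 it was 0.24, 0.22 or 0.57.

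Ccng1 encodes cyclin G1, which binds a phosphatase that acts on the Mdm2 protein. Ccng1 was at 104, 104, 105 and 82.4 CPM in TDP-43Q331K and at 91.3, 84.2, 90.8 and 87.4 CPM in WT. Mutant replicates 1 to 3 lay above every WT library and replicate 4 below every one. The log2 fold change was 0.16 (95% interval -0.0057 to 0.32) and did not pass (edgeR adjusted p 0.335). Without TDP-43Q331K replicate 4 it was 0.24, with an edgeR adjusted p of 0.0629 that also missed the threshold; over all alternatives this adjusted p ran from 0.0629 to 0.535.

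Gadd45a encodes a stress sensor that binds kinases and cell cycle proteins. It was at 3.12, 3.75, 2.98 and 3.22 CPM in TDP-43Q331K and at 3.33, 2.86, 3.34 and 2.58 CPM in WT, the highest value being in mutant replicate 2 and the lowest in WT replicates 2 and 4. Its log2 fold change was 0.11 (95% interval -0.17 to 0.39, edgeR adjusted p 0.719). Gadd45a shares 337 exonic bases with E230016M11Rik, a transcript of the opposite strand at 4.59 CPM in TDP-43Q331K and 4.68 CPM in WT. The sources do not state whether the counting used strand, and without it reads of the shared bases belong to either gene.

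Mdm2, whose protein marks p53 for degradation and closes a feedback loop, was at 46.7, 43.9, 46.5 and 46.1 CPM in TDP-43Q331K and at 40.4, 43.0, 41.8 and 45.2 CPM in WT. It was the most even member in the mutants, with an SD of 2.83% of the mean, and 3 mutant libraries lay above every WT library. The log2 fold change of 0.10 (95% interval -0.0032 to 0.21) did not pass (edgeR adjusted p 0.332).

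Among the members tied to cell death, Bax encodes the pore-forming BCL2 family protein of the mitochondrial outer membrane. It was at 14.2, 15.6, 14.7 and 14.9 CPM in TDP-43Q331K and at 15.5, 13.4, 16.3 and 14.1 CPM in WT. The means lay close together, at 14.85 ± 0.609 CPM in TDP-43Q331K and 14.84 ± 1.30 CPM in WT (SD, n = 4 each). The interval of its log2 fold change, from -0.16 to 0.16, bounds the difference (edgeR adjusted p 0.998).

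Phlda3 encodes a repressor of the kinase AKT. It was at 17.3, 22.4, 16.4 and 19.6 CPM in TDP-43Q331K and at 16.9, 15.6, 20.1 and 15.0 CPM in WT, the highest mutant value being in replicate 2 and the highest WT value in replicate 3. Trp53inp1, whose product promotes p53-driven death and autophagy, was at 18.3, 20.7, 20.4 and 17.0 CPM in TDP-43Q331K and at 19.2, 14.9, 15.3 and 21.0 CPM in WT. WT replicates 2 and 3 lay below every mutant library and WT replicate 4 above every one. The log2 fold changes were 0.16 (95% interval -0.09 to 0.41) for Phlda3 and 0.12 (-0.14 to 0.37) for Trp53inp1, with edgeR adjusted p of 0.535 and 0.657.

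Zmat3 encodes a zinc finger protein that binds RNA and acts on splicing. It was at 149, 129, 135 and 125 CPM in TDP-43Q331K and at 125, 122, 123 and 137 CPM in WT. Replicate 1 was the highest mutant library and replicate 4 the highest WT library, and the others lay close together. The log2 fold change was 0.09 (95% interval -0.05 to 0.22, edgeR adjusted p 0.544).

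The members spanned a wide range of levels. Per kilobase of exon, Ccng1 was the highest, at 28.1 CPM in TDP-43Q331K and 25.2 CPM in WT. In TDP-43Q331K it was followed by Phlda3 at 12.1, Zmat3 at 11.8, Bax at 9.42, Mdm2 at 9.01, Cdkn1a at 6.39, Trp53inp1 at 2.95, Gadd45a at 1.85 and Sfn at 1.67 CPM per kilobase. In WT it was followed by Zmat3 at 11.1, Phlda3 at 10.9, Bax at 9.42, Mdm2 at 8.38, Cdkn1a at 4.97, Trp53inp1 at 2.72, Gadd45a at 1.72 and Sfn at 0.918 CPM per kilobase. Phlda3 and Zmat3, which stand in opposite order in the genotypes, are neighbours that do not differ beyond the spread of their libraries. These levels depend on the exon lengths of all annotated transcripts in GENCODE M21.

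**Figure D3:**
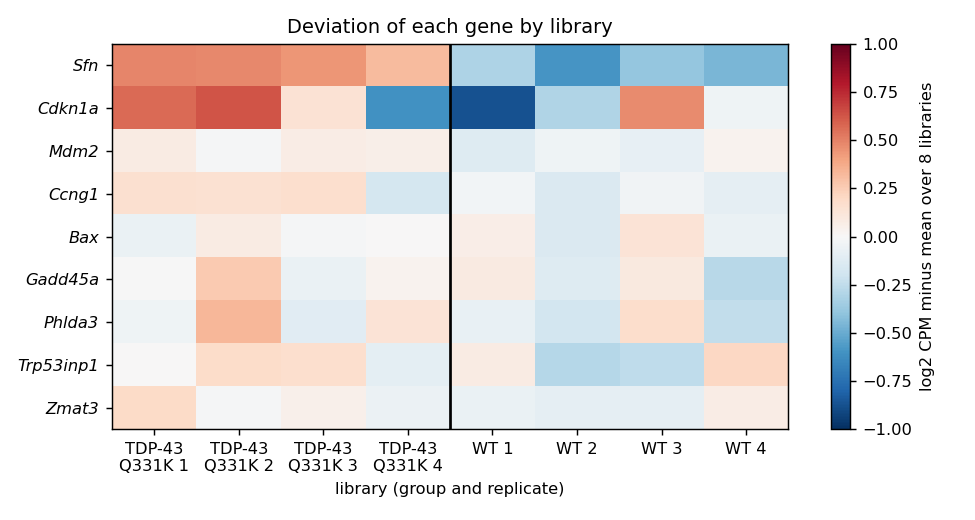
Log2 CPM of each p53 target gene in each library minus its mean over the 8 libraries, TDP-43Q331K replicates left of the line and WT replicates right of it; red is above and blue below the mean, on a scale from -1 to 1. Sfn is red in every TDP-43Q331K library and blue in every WT library, and Cdkn1a has the deepest colours of both kinds within each group.

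Across the libraries, TDP-43Q331K replicate 2 was above the 8-library median in 8 of the 9 members and WT replicate 2 in 0 of them. TDP-43Q331K replicates 1 and 3 were above it in 6 each and replicate 4 in 5, and WT replicates 1, 3 and 4 in 4, 4 and 3. Sfn, chosen for its difference, counts towards every mutant tally and towards no WT tally, so it adds nothing to these counts. With the group means subtracted, Gadd45a and Phlda3 varied together (Pearson r = 0.88 over 8 libraries), as did Bax with Phlda3 (0.81) and with Gadd45a (0.80). Mdm2 ran against these 3, at -0.70 with Phlda3, -0.70 with Bax and -0.94 with Gadd45a. Sfn was at 0.75 with Ccng1 and 0.27 with Cdkn1a. Cdkn1a was at 0.62 with Ccng1 and at 0.12 with Gadd45a. These coefficients describe 8 libraries that share tissue make-up and scaling, and carry no test. Those of Sfn rest on variation that may be no more than counting error.

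The genes whose pattern over the 8 libraries was most like that of Sfn were found among all genes by Pearson correlation of log2 CPM. They were ENSMUSG00000118665, which has no symbol in the tables used, at 0.983, the ubiquitin ligase gene Ubr1 at 0.981, the processed pseudogene Gm13886 at 0.978, the small GTPase gene Rap2c at 0.975 and the non-coding Gm49745 at 0.975. In each of the 5 the genotypes did not overlap, as in 9.68% of all genes. A ranking by likeness to Sfn, chosen for its difference between the genotypes, favours such genes. Ubr1 was at 88.4, 86.2, 86.2 and 87.5 CPM in TDP-43Q331K and at 74.3, 71.5, 71.7 and 73.7 CPM in WT. With the group means subtracted, which leaves the variation within genotypes, the nearest genes were Tmem218 at 0.985, Uvrag at 0.977, A2ml1 at 0.957, Ovol2 at 0.951 and Liph at 0.950, and the genotypes overlapped in each. At its 66 to 153 counts, Sfn had an SD of 5.34% of the mean in TDP-43Q331K and 8.19% in WT. This variation within genotypes may be no more than counting error, so the ranking of these nearest genes may follow noise. Tmem218 was at 11.4, 11.3, 10.8 and 9.32 CPM in TDP-43Q331K and at 13.4, 10.2, 12.8 and 12.2 CPM in WT. The genes nearest to Cdkn1a over the 8 libraries, chosen after its values were seen, were Dnajb5 at 0.977, Acvr1 at 0.968 and the gap junction gene Gjd2 at 0.958. Dnajb5, a chaperone gene, was at 174, 168, 162 and 136 CPM in TDP-43Q331K and at 132, 149, 169 and 148 CPM in WT, with the same 3 libraries highest and the same 2 lowest as for Cdkn1a.

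The genes around the members were counted in 7 lists with 103 genes, of which 93 were measured. None passed edgeR's test over all genes, while 10 were higher and 6 lower at an unadjusted p under 0.05, which 15.7% of all genes reached, 7.91% as higher and 7.77% as lower. DESeq2 called 5 of them, Ddit4 higher and Btg2, Ywhah, Hrk and Mapk14 lower, where it called 4.47% of all genes tested. Over the 93 genes the median log2 fold change was 0.04. The groups did not overlap in 3 of the 93 with the mutants higher and in 3 with the mutants lower, a pattern found in 9.68% of all genes.

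Trp53 itself, with the genes of its relatives and regulators, had 12 positive and 3 negative members of 15 measured, a median of 0.12, and 3 higher at an unadjusted p under 0.05. Of all genes, 51.8% were positive and 7.91% were higher at that unadjusted level. Trp53 was at 20.1 ± 0.718 CPM in TDP-43Q331K and 18.5 ± 0.859 CPM in WT (SD, n = 4 each), a log2 fold change of 0.12 (edgeR adjusted p 0.340). Mdm4, which encodes a partner of Mdm2 that restrains p53, was at 142, 117, 143 and 144 CPM in TDP-43Q331K and at 115, 127, 124 and 124 CPM in WT. Mutant replicate 2 fell among the WT libraries and the other 3 lay above them, and the log2 fold change of 0.16 did not pass (edgeR adjusted p 0.307). Ep300, a histone acetyltransferase gene, was at 0.18 (edgeR adjusted p 0.143) and Hipk2, a kinase gene for p53, at 0.19 (0.242). The p53 relatives were scarce, with Trp63 at 0.955 CPM in TDP-43Q331K and 0.879 CPM in WT, and Trp73 at 1.71 ± 0.697 CPM in TDP-43Q331K and 1.23 ± 0.198 CPM in WT (SD, n = 4 each).

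Of 26 further p53 targets, 14 were positive and 12 negative, with a median of 0.04, 5 higher and 2 lower at an unadjusted p under 0.05, and 0 past the test over all genes. Of all genes, 7.91% were higher and 7.77% lower at that unadjusted level, and 0.943% passed the test. Ddit4, an inhibitor of mTOR signalling that also answers to other stresses, was at 55.5, 61.1, 51.0 and 50.1 CPM in TDP-43Q331K and at 37.9, 38.1, 50.0 and 46.0 CPM in WT. Its groups did not overlap, as in 9.68% of all genes, though the lowest mutant and the highest WT library were close. Between the means lay a log2 fold change of 0.34 (edgeR adjusted p 0.135). The death receptor gene Fas was at 1.60 ± 0.218 CPM in TDP-43Q331K and 1.10 ± 0.213 CPM in WT (SD, n = 4 each), a log2 fold change of 0.53 (edgeR adjusted p 0.196). Btg2, an antiproliferative gene that is also switched on by neuronal activity, was at 28.2 ± 4.37 CPM in TDP-43Q331K and 37.7 ± 6.10 CPM in WT (SD, n = 4 each). All mutant libraries were below all WT ones, and the log2 fold change of -0.42 did not pass (edgeR adjusted p 0.159).

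The 6 other 14-3-3 genes, which encode the adaptors common in neurons, all had negative log2 fold changes, with a median of -0.09, where 51.8% of all genes were positive. Ywhah, which encodes 14-3-3 eta, was at 627, 636, 587 and 635 CPM in TDP-43Q331K and at 723, 680, 749 and 690 CPM in WT, so that all the mutant libraries were below all the WT ones. The log2 fold change of -0.19 missed the threshold in edgeR (adjusted p 0.0951), and DESeq2 gave -0.20 with an adjusted p of 0.00313; over all alternatives the adjusted p ran from 0.00313 to 0.310. Ywhag was at -0.10, Ywhaq at -0.09, Ywhae at -0.08, Ywhaz at -0.05 and Ywhab at -0.02, with edgeR adjusted p between 0.278 and 0.908, and Ywhab turned positive without TDP-43Q331K replicate 3. Ywhah resembles 1 pseudogene, Ywhaz 3 and Ywhaq 10 other transcripts, so their counts are uncertain. Beside these genes, the 7 excitatory neuron markers were also all negative, with a median of -0.14 and none past the test; the part of neuron content was not tested. Per kilobase of exon, even Ywhaq, the lowest of them, was at 51.0 CPM in TDP-43Q331K and 54.3 CPM in WT, far above Sfn.

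**Figure D4:**
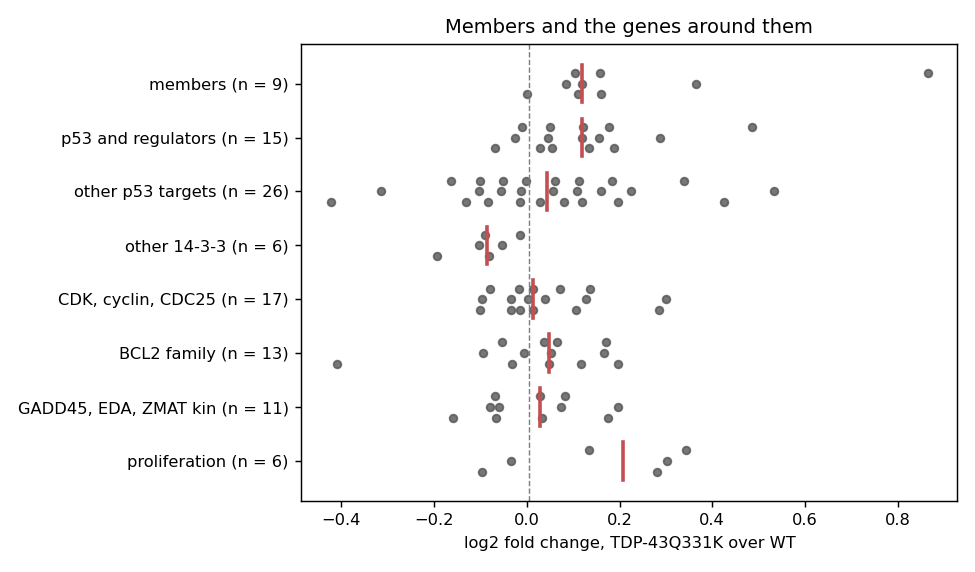
Log2 fold change, TDP-43Q331K over WT, of every measured gene in the member list and the 7 lists around it; each point is a gene, the red bar the median of its list, and the dashed line the median of all genes. The point at 0.86 is Sfn, and the other 14-3-3 genes lie between -0.19 and -0.02.

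Of 17 genes for cyclins, their kinases and related inhibitors and phosphatases, 10 were positive, with a median of 0.01. Cdc25a, a phosphatase gene that drives the cell cycle, was at 7.30, 8.20, 7.42 and 7.52 CPM in TDP-43Q331K and at 5.67, 6.63, 6.76 and 5.91 CPM in WT, which did not overlap (log2 fold change 0.29, edgeR adjusted p 0.152). Rb1 was at 0.14 and Pcna, which encodes the DNA polymerase clamp that p21 binds, at -0.10. Of 13 BCL2 family and related genes, 8 were positive, with a median of 0.05. Hrk, a death-promoting BH3 gene of neurons, was at 56.0, 47.8, 50.1 and 53.3 CPM in TDP-43Q331K and at 72.5, 86.1, 51.9 and 64.4 CPM in WT, a log2 fold change of -0.41 (edgeR adjusted p 0.155) that DESeq2 called. Without WT replicate 3 it was -0.52 and passed (edgeR adjusted p 0.0435); over all alternatives the adjusted p ran from 0.0308 to 0.405. The survival gene Mcl1 was at 0.17 (0.150) and Bid at 0.17 (0.350).

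Of 11 relatives and partners of Gadd45a, Eda2r, Phlda3 and Zmat3, 6 were positive. Mapk14, the p38 kinase gene, was at -0.16 (edgeR adjusted p 0.141, DESeq2 adjusted p 0.0493) with all mutant libraries below all WT ones, Map3k4 at 0.08 and Gadd45b at 0.20. Of 6 proliferation genes measured, 4 were positive with a median of 0.21 and none was at an unadjusted p under 0.05. Mki67 was at 3.24 ± 0.810 CPM in TDP-43Q331K and 2.56 ± 0.480 CPM in WT (SD, n = 4 each), Plk1 at 0.28 and Mcm2 at 0.13 on the log2 scale.

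Markers of other tissues and cells moved between libraries and are given beside these results. The 10 choroid plexus markers, an epithelium next to the cortex, summed to 284, 554, 438 and 1079 CPM in TDP-43Q331K and to 819, 219, 221 and 226 CPM in WT. TDP-43Q331K replicate 4 and WT replicate 1, the libraries richest in them, were at 2.49 CPM of Sfn, the lowest mutant value, and at 1.61 CPM, the highest WT value. Cdkn1a was lowest in the same 2 libraries, at 12.5 and 10.4 CPM. Without both, the log2 fold change of Sfn was 0.95, that of Cdkn1a 0.38 and that of Ccng1 0.25 (edgeR adjusted p 0.142 for Ccng1). These 2 libraries held the lowest mutant and the highest WT value of both Sfn and Ccng1. Leaving them out thus widens those differences by itself, and it does not test the part of choroid plexus.

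The 10 markers of thalamus and olfactory bulb summed to 172, 274, 246 and 233 CPM in TDP-43Q331K and to 84.2, 91.6, 224 and 171 CPM in WT. Their highest members were Cdhr1 and Calb2, and WT replicates 3 and 4, at 1.53 and 1.46 CPM of Sfn, were near the mutants in this sum. All 10 were positive, with a median log2 fold change of 0.72 and none past edgeR's test. Slc17a6, a vesicular glutamate transporter gene of the same list singled out after its values were seen, ran from 33.2 to 50.0 CPM in TDP-43Q331K and from 25.7 to 31.7 CPM in WT. Its groups did not overlap (log2 fold change 0.45, edgeR adjusted p 0.123). Of 14 markers of epithelial cells and keratinocytes, where Sfn is typically found, 4 were measured, Dsp, Perp, Trp63 and Col17a1, and keratin genes were not analysed here. These 4 summed to between 4.46 and 17.0 CPM in TDP-43Q331K and to between 6.88 and 12.8 CPM in WT. Most of that spread came from Dsp, at 0.220, 4.03, 6.41 and 11.4 CPM in TDP-43Q331K and at 6.90, 5.53, 3.97 and 2.27 CPM in WT. Col17a1 was at 1.08, 1.13, 0.637 and 1.02 CPM in TDP-43Q331K and at 0.827, 0.775, 0.668 and 0.662 CPM in WT, with 3 mutant libraries above every WT library (log2 fold change 0.39, edgeR adjusted p 0.412). TDP-43Q331K replicate 1, which had the highest Sfn, was the lowest library in Dsp, in Perp (2.38 CPM) and in the sum (4.46 CPM). In Trp63 it was the lowest mutant library, at 0.780 CPM, and only in Col17a1 was it among the high libraries.

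The sum of the 9 meningeal and fibroblast markers measured, led by Ptgds and Dcn, ran from 159 to 351 CPM in TDP-43Q331K and from 149 to 369 CPM in WT. Striatal markers, led by Ppp1r1b and Penk, ran from 428 to 914 CPM in TDP-43Q331K and from 334 to 949 CPM in WT. Astrocyte markers, led by Slc1a2 and Slc1a3, ran from 3918 to 4486 CPM in TDP-43Q331K and from 3811 to 4691 CPM in WT. Endothelial markers, led by Flt1 and Slco1a4, ran from 150 to 198 CPM in TDP-43Q331K and from 154 to 198 CPM in WT. The 7 oligodendrocyte markers reported, led by Mbp, summed to between 2775 and 3869 CPM in TDP-43Q331K and to between 2753 and 3316 CPM in WT. All 7 were positive under each scaling tried, with a median log2 fold change of 0.11, and none passed edgeR's test. The median of the p53 targets, Sfn included, was 0.12. The 6 microglial markers reported, led by Csf1r, summed to between 208 and 245 CPM in TDP-43Q331K and to between 224 and 253 CPM in WT. Of these 6, 5 were negative, and 3 with library size as the only scaling. P2ry12, a microglial receptor gene singled out after its values were seen, was at 34.1, 33.5, 34.3 and 36.4 CPM in TDP-43Q331K and at 44.6, 43.0, 37.2 and 40.4 CPM in WT, without overlap (log2 fold change -0.26, edgeR adjusted p 0.0906). Interneuron markers, led by Gad1 and Gad2, ran from 1024 to 1238 CPM in TDP-43Q331K and from 833 to 1163 CPM in WT. Excitatory neuron markers, led by Camk2a and Snap25, ran from 7232 to 7852 CPM in TDP-43Q331K and from 7918 to 8380 CPM in WT. These sums did not overlap, whereas the groups overlapped in each of the 7 genes taken alone. The part of these markers in the levels of the members was not tested.

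**Figure D5:**
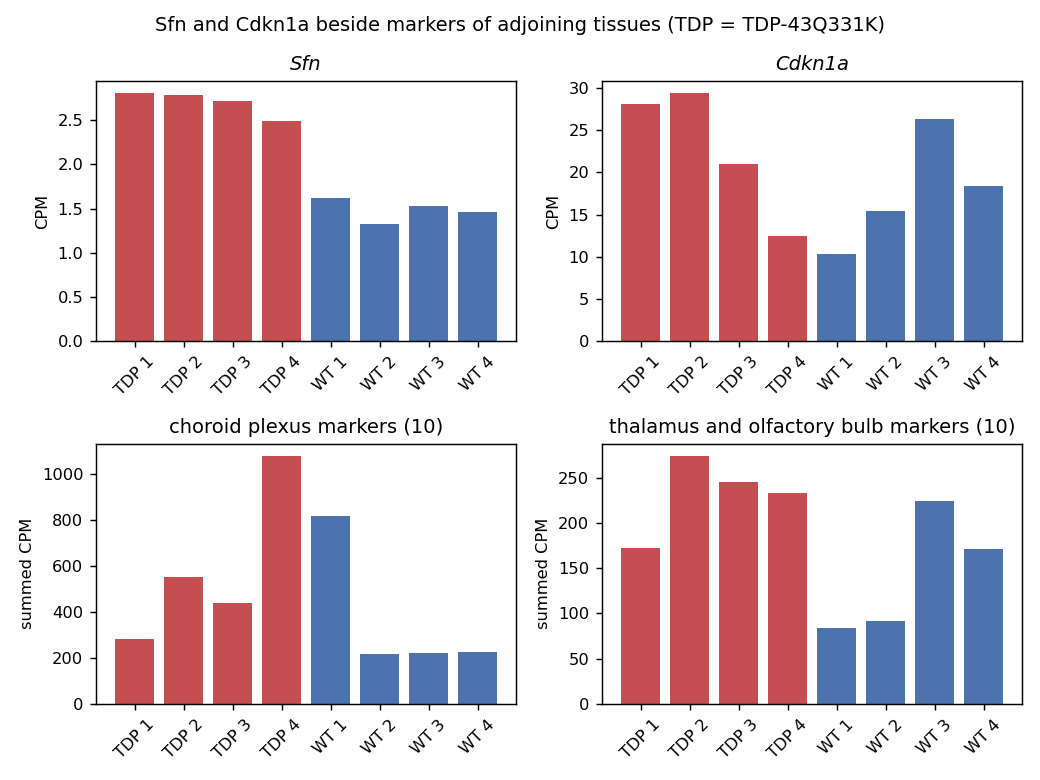
CPM of Sfn and of Cdkn1a in each library above the summed CPM of 10 choroid plexus markers and of 10 thalamus and olfactory bulb markers, TDP-43Q331K replicates 1 to 4 in red at the left and WT replicates 1 to 4 in blue at the right. The choroid sums of 1079 and 819 CPM in TDP-43Q331K replicate 4 and WT replicate 1 stand beside the lowest Cdkn1a values of their groups, whereas the Sfn bars of all 4 TDP-43Q331K libraries are higher than those of all 4 WT libraries.

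The libraries in which Xist was high were TDP-43Q331K replicates 1 and 2 and WT replicates 2 and 3. Cdkn1a was at 28.1 and 29.4 CPM in these mutant libraries and at 15.4 and 26.4 CPM in these WT libraries. In the others it was at 21.0 and 12.5 CPM in TDP-43Q331K and at 10.4 and 18.4 CPM in WT. With the Xist level as a covariate, the log2 fold change of Cdkn1a was 0.35 and its edgeR adjusted p 0.521, and that of Sfn was 0.86.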

How the data were processed

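Per the labels' protocols, oligo(dT)-captured RNA of 4 TDP-43Q331K and 4 WT cortices went into stranded libraries that were read on an Illumina NovaSeq X. Per the submitters' processing notes, the build was GRCm39 and the tools were STAR 2.7.6a, R 4.3.1 and edgeR 4.4.2, each without a stated role. Counting program, strand setting and annotation: not given in the sources used here. Raw counts for each gene were deposited, per the file headers, and a table of signal, the same counts divided by TMM-scaled library sizes. Columns were matched to samples by library name, and 0 were unmatched. Symbols were found for 15470 of 15693 identifiers in GENCODE M21, which describes GRCm38, so no gene coordinates are given on the authors' build.

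The genotypes were compared by edgeR 4.0.16 under R 4.3.3 (TMM factors; filterByExpr, which removed 0 genes; a two-sided quasi-likelihood F-test), adjusted by Benjamini-Hochberg over 15693 genes with a threshold of 0.05. The SE and 95% intervals come from that F statistic. Alternatives were DESeq2 1.42.0; limma-voom and limma-trend (limma 3.58.1, the second on log2 of the deposited signal plus 1); RLE, upper quartile or library size scaling; no filter, or CPM above 1 in at least 4 libraries; a threshold of 0.10; the replicate block; Xist as a covariate; and omission of each library. Leaving out the 2 choroid-rich libraries was chosen after seeing the data. The fit was tested on simulated data. Members and lists were chosen with earlier results of these data known. Named were the members, Trp53, Mdm4, Trp63, Trp73, the other 14-3-3 genes, the 3 genes of each pathway list with the smallest p, the 2 highest markers of each marker list (1 oligodendrocyte and 1 microglial marker are not reported here, and the sums leave them out), and the 5 genes most like Sfn; Tardbp, Xist, the neighbours of Sfn, the gene overlapping Gadd45a Slc17a6, P2ry12, the other epithelial markers and genes like Cdkn1a were added. Near copies are transcripts of other genes with at least 90% identity over at least 50% of either transcript. The libraries are named as mice of a genotype with no animal numbers, so p-values measure the spread between these libraries. Promoters and figures used Python 3.11.15. At 1 CPM a library held at least 45.3 counts.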

Additional observations from a re-analysis of the deposited data

Results flagged for a closer look

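In 72 groups of 4 libraries (36 genes in 2 genotypes), 3 had a library far from the other 3 by Dixon's criterion, which chance alone gives in about 1 group in 20. Ccng1 was at 82.4 CPM in TDP-43Q331K replicate 4, with the other mutant libraries between 104 and 105 CPM. Zmat3 was at 137 CPM in WT replicate 4, with the other WT libraries between 122 and 125 CPM. Mdm4 was at 117 CPM in TDP-43Q331K replicate 2, with the other mutant libraries between 142 and 144 CPM.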

How the results depend on the processing

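The count of genes called over the whole table was 148 (54 higher, 94 lower) as reported, 701 (288 and 413) with DESeq2, 396 (171 and 225) at a threshold of 0.10, and 51 to 129 (18 to 53 and 33 to 76) without 1 library. No pairing by replicate number was seen. Same-numbered libraries deviated together with r between -0.412 and 0.033, and 0 of 8 correlated best with its own number. Tissue make-up also varied between libraries, so this check cannot exclude a shared litter or day. With the replicate block 14 genes were called (8 and 6) and 0 members, Sfn being at 0.87. Without TDP-43Q331K replicate 4 and WT replicate 1, chosen after seeing the data, 12 were called (7 and 5) and 0 members, with 3 libraries a group. The members other than Sfn passed in 0 of the alternatives. Of the pathway genes, DESeq2 called 5, the 0.10 threshold 1 (Ywhah), and the fits without 1 library 0 to 1. The log2 fold change of Bax turned to -0.0042 with RLE, -0.016 with upper quartile scaling and -0.0039 with DESeq2, and ran from -0.045 to 0.049 without 1 library; that of Ywhab ran from -0.047 to 0.0046. The cause was not tested. Trp63 gave no value with the CPM filter. At 66 to 153 counts, Sfn is the member with the fewest reads, so counting error weighs most on it.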
